A study of Homo sapiens with 18 samples.

Results

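CAV1 and CAV2, the caveolin genes of human chromosome 7, were examined through the chromatin immunoprecipitation sequencing (ChIP-seq) peaks around them in A673, an established Ewing sarcoma cell line. The peaks were those in a window of 350 kb on chromosome 7 from 116000000 to 116350000 (hg19), which holds the start of CAV2 at 116139655 and the start of CAV1 at 116164839, 25184 bp further on. The window was chosen by its peaks, with a strong region already known upstream of both genes, so positions, scores and overlaps are described here and were not tested. It held 7 of the 45354 peaks in the 5 peak lists that were analysed. These are RING1B (2 replicates, with 2 peaks each in the window), histone H2A monoubiquitination (H2Aub1, 2 replicates, with 1 and 0 peaks) and EWSR1-FLI1 (1 list without replicate, with 2 peaks).

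All of these cells were A673, grown in RPMI medium with serum and given no treatment, and all 5 lists are from the cells without a knockdown. The antibodies were RING1B (MBL, D139-3), H2Aub (Cell Signalling, D27C4) and Abcam ab15289 for EWSR1-FLI1. The series has 18 samples, and the other 13, which include inputs and the RING1B knockdown, were not analysed here. A single cell line was used. Whether replicates are separate cultures is not stated in the labels, so their spread may be only technical.

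Caveolins are small membrane proteins that build caveolae, flask-shaped pits of the plasma membrane involved in lipid handling, mechanical buffering and signalling. CAV1 is the main structural caveolin outside muscle, and CAV2 forms hetero-oligomers with it. EWSR1-FLI1 is the fusion oncoprotein of most Ewing sarcomas. It carries the ETS DNA-binding domain of FLI1, which recognises a GGAA core and, in the fusion, also binds GGAA repeats. CAV1 is a known target of the fusion. RING1B is the ubiquitin ligase of Polycomb repressive complex 1, a chromatin complex often found at CpG-rich gene starts, and H2Aub1 is the mark that it deposits.

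The reference sequences before both gene starts are shown because one of the regions described below reaches the CAV1 start while no peak reached the CAV2 start. Each is the 250 bases before a gene's first RefSeq start on build GRCh38.p14, + strand, with GGAA and its reverse complement TTCC in capitals.

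CAV1, chr7:116524759-116525008: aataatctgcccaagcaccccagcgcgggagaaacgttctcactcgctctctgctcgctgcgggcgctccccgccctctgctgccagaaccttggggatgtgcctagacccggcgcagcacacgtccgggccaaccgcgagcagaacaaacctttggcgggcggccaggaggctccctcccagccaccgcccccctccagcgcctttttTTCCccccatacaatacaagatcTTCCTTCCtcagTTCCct

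CAV2, chr7:116499488-116499737: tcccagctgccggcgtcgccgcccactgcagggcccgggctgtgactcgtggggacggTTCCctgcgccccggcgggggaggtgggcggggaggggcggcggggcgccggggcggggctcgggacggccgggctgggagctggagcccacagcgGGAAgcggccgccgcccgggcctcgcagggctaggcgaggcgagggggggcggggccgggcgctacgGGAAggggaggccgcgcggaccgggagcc

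The CAV1 sequence held 4 matches to GGAA on either strand, all of them as TTCC. A pair of them stood side by side as TTCCTTCC, which begins 18 bases before the start. The tandem GGAAGGAA, searched on both strands, was present in 3.06% of the 35116 RefSeq start sites with a promoter entry (1076 of them, over the same 250 bases). The CAV2 sequence held 3 single matches and no tandem. The median over all entries was 3 matches. Both sequences differed in base composition. The CAV2 sequence had 83.2% G and C and 35 CpG dinucleotides, above 94.2% of entries in CpG count, and the CAV1 sequence had 63.6% and 18 CpG, above 63.2% of entries. RefSeq lists a further CAV1 start 1353 bases downstream, whose 250 preceding bases held 29 CpG and no GGAA on either strand. Before a further CAV2 start, 308 bases downstream of its first, the 250 bases held 27 CpG and no GGAA on either strand. RefSeq also lists a CAV1 start 27 bases downstream of the first, with 16 CpG, 5 matches and the same tandem, 45 bases before it. The CAV2 counts of 35 and 27 thus exceeded the CAV1 counts of 18 and 16. The CAV1 count of 29 lay between the CAV2 counts. These matches are letters in a reference sequence and not measured binding sites. Starts on hg19 and GRCh38 were not converted into each other.

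Of 11 genes of caveolae that were looked for by symbol (the caveolins, the cavins and their partners), 8 had a promoter entry, and CAV1 was the only one of these 8 with the tandem. Any start of a gene counted here, while the 3.06% over all entries is per start. A share over all genes was not computed, so nothing is read from this count. Peaks at genes other than CAV1 and CAV2 were not assigned, since an hg19 annotation was not used here.

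Both EWSR1-FLI1 peaks of the window lay inside RING1B peaks of both replicates, one upstream of the 2 genes and one at the CAV1 start. Overlap with a reproducible RING1B region, a merged region with a peak of each replicate sharing at least 1 bp, was thus found for 2 of 2 EWSR1-FLI1 peaks, beside 41.8% of the 2145 EWSR1-FLI1 peaks in the whole list. Conversely, 2 of 2 reproducible RING1B regions of the window carried EWSR1-FLI1, beside 56.2% of 1587 in all. Lying inside a RING1B peak of each replicate was found for 211 EWSR1-FLI1 peaks, 9.84% of the whole list and 23.7% of the 892 that overlapped a peak of each. The rule chose the window for such a region, so nothing is read from these counts.

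**Figure D1:**
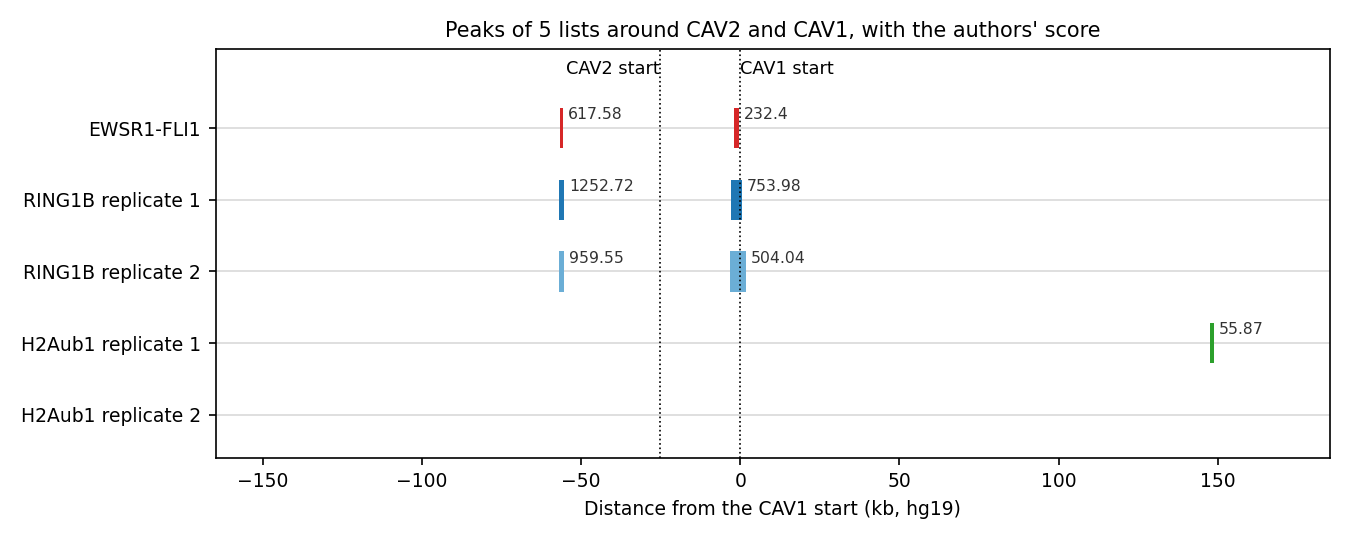
Peaks of the 5 lists (one row each) drawn to scale against the distance from the CAV1 start in kb, with the score of each peak as the authors gave it and dotted lines at the starts of CAV2 and CAV1. EWSR1-FLI1 and both RING1B replicates share a pair of sites, one upstream of CAV2 and one at CAV1, and the single H2Aub1 peak lies about 148 kb beyond the CAV1 start.

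The upstream region was among the strongest RING1B sites. Its peak ran from 116107866 to 116109571 in RING1B replicate 1 (1706 bp), from 116107824 to 116109561 in replicate 2 (1738 bp) and from 116108205 to 116109270 in the EWSR1-FLI1 list (1066 bp). The deposited peak score, one number per peak on an unstated scale, was 1252.72 in RING1B replicate 1, 959.55 in replicate 2 and 617.58 for EWSR1-FLI1. Scores are therefore read only as places within a list. The peak ranked 28 of 2573 in RING1B replicate 1, 32 of 3945 in replicate 2 and 68 of 2145 in the EWSR1-FLI1 list. It stood higher than 98.9%, 99.2% and 96.8% of these lists, so all 3 lists place the site near their top.

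The upstream region preceded both genes. The middle of its EWSR1-FLI1 peak lay 30.9 kb before the CAV2 start and 56.1 kb before the CAV1 start. The nearer gene start was thus that of CAV2, which itself had no peak of any list. RefSeq on GRCh38 names CAV2-DT, a noncoding transcript of the opposite strand, as the gene next before CAV2, and whether the upstream region lies inside it was not determined on hg19.

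At the upstream region the 3 peaks were nearly concentric. The RING1B middle lay 19 bp from the EWSR1-FLI1 middle in replicate 1 and 45 bp in replicate 2, beside medians of 63.5 and 64.8 bp over the 892 EWSR1-FLI1 peaks that overlapped a peak of each RING1B replicate. RING1B reached past the EWSR1-FLI1 peak by 339 and 381 bp on the left and by 301 and 291 bp on the right in replicates 1 and 2. Both replicates agreed closely in extent, with 1696 bp in common, 99.4% of the replicate 1 peak and 97.6% of the replicate 2 peak. RING1B was 1.60 and 1.63 times as wide as EWSR1-FLI1 there, beside medians of 1.06 and 1.10 over the same 892 peaks.

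The region at the CAV1 start was lower in score than the upstream region and broader. The RING1B peak ran from 116161824 to 116165382 in replicate 1 (3559 bp, score 753.98) and from 116161701 to 116166711 in replicate 2 (5011 bp, score 504.04). The EWSR1-FLI1 peak ran from 116162743 to 116164499 (1757 bp, score 232.4). By score these peaks ranked 82 of 2573, 110 of 3945 and 398 of 2145, above 96.8%, 97.2% and 81.4% of their lists. In each of the 3 lists the score was below that of the upstream region.

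RING1B covered the CAV1 start and EWSR1-FLI1 stopped short of it. The RING1B peak began 3015 bp before the start and ended 543 bp past it in replicate 1, and it began 3138 bp before and ended 1872 bp past it in replicate 2. The EWSR1-FLI1 peak ended 340 bp before the start, with its middle 1218 bp before it. These distances rest on the hg19 start given with the window, which was not checked against an annotation. The starts of CAV2 and CAV1 lie 25184 bp apart there and the first RefSeq starts on GRCh38 lie 25271 bp apart. This difference of 87 bp is one of spacing. A shift common to both starts would not show in it, so the error of the CAV1 start itself is unknown. The 250 bases printed above, counted from a start on another build, are fewer than these 340 bp, and the EWSR1-FLI1 peak was not placed against the tandem.

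**Figure D2:**
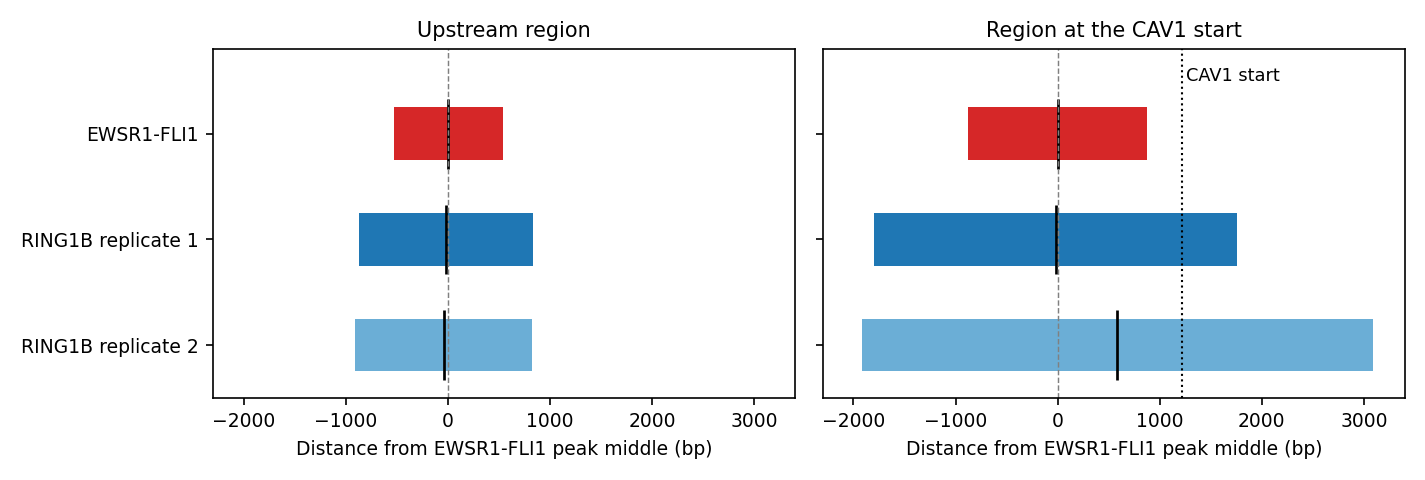
EWSR1-FLI1 and RING1B peaks at the upstream region (left) and at the CAV1 start (right), drawn to scale in bp from the middle of the EWSR1-FLI1 peak, with a black tick at the middle of each peak and a dotted line at the CAV1 start. The peaks are nested in both regions, and at CAV1 both RING1B peaks cross the gene start while the EWSR1-FLI1 peak ends 340 bp before it.

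The replicates differed in how far RING1B extended into CAV1. Their left edges at the CAV1 start lay 123 bp apart and their right edges 1329 bp apart, so the replicate 1 peak lay wholly inside the replicate 2 peak and made up 71.0% of it. As a result the RING1B middle was 18 bp from the EWSR1-FLI1 middle in replicate 1 and 585 bp in replicate 2. Over the 892 EWSR1-FLI1 peaks with RING1B in both replicates, 756 had an offset of at least 18 bp in replicate 1. In replicate 2, 21 had one of at least 585 bp. Both counts include the CAV1 start peak itself. Read depth was not available from peak lists, so the part of depth in this extent was not tested.

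By width the CAV1 start region stood at the edge of the shared sites. The merged RING1B region of 5011 bp was the widest of the 892 reproducible RING1B regions with EWSR1-FLI1. Within single replicates its width ranked 2 of 1168 RING1B peaks with EWSR1-FLI1 in replicate 1 and 1 of 1171 in replicate 2. Among all RING1B peaks, with or without EWSR1-FLI1, it ranked 50 of 2573 and 17 of 3945. The EWSR1-FLI1 peak was broad too, at rank 48 of 2145 by width, and 22 of the 1747 EWSR1-FLI1 peaks with a lower score were wider. RING1B was 2.03 times as wide as EWSR1-FLI1 there in replicate 1 and 2.85 times in replicate 2. Of the 892 peaks, 13 and 3 had a ratio at least as large, the CAV1 start peak itself included. These ranks describe a region whose peaks were already known and carry no test.

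Only 8 of the 892 shared regions exceeded 3 kb. The next in width after CAV1 lay on chromosome 11, at 4936 bp (37023151 to 37028086) and 4424 bp (37297985 to 37302408), and 4 of the 8 were on that chromosome. The CAV1 start region had RING1B scores of 753.98 and 504.04, and of the other 7 a region on chromosome 14 (97681312 to 97685033, 1703.36 and 1369.39) and one on chromosome 11 (83457638 to 83461803, 900.55 and 556.64) were higher in both replicates.

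**Figure D3:**
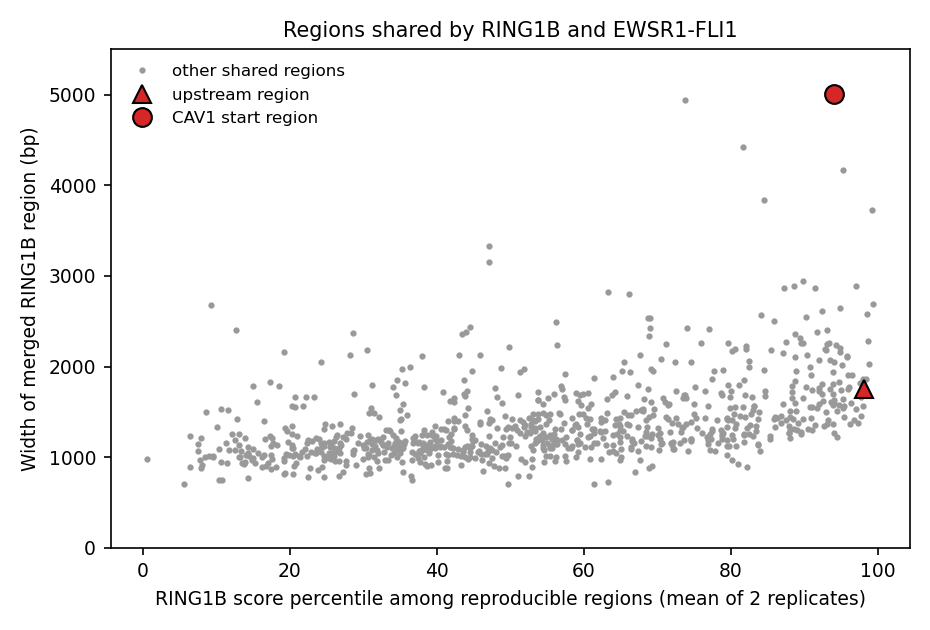
Width in bp of each merged RING1B region that carried EWSR1-FLI1 (892 points) against its RING1B score percentile among the reproducible RING1B regions, averaged over the 2 replicates. The CAV1 start region (circle, 5011 bp) is the widest point, and the upstream region (triangle, 1748 bp) ranks 138 by width and lies at the far right of the score axis.

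RING1B and EWSR1-FLI1 did not give the caveolin regions the same place. Among the 892 shared regions the upstream region ranked 7 and 11 by the RING1B score of replicates 1 and 2 and 68 by the EWSR1-FLI1 score. The CAV1 start region ranked 36 and 62 by RING1B and 345 by EWSR1-FLI1. In both regions the RING1B rank was thus nearer the top than the EWSR1-FLI1 rank, in either replicate. Regions above the upstream region in all 3 lists numbered 5, and those above the CAV1 start region numbered 28.

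Next to the upstream region in the order by averaged RING1B percentile stood a region on chromosome 18 (10461586 to 10463446) at rank 6 and one on chromosome 14 (97531782 to 97533638) at rank 8. Their RING1B scores were 1188.99 and 1110.69, and 1218.89 and 940.79, close to the 1252.72 and 959.55 of the upstream region. Their EWSR1-FLI1 scores were 1754.78 and 802, above its 617.58. Without replicates of EWSR1-FLI1 the error of these scores is unknown.

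**Figure D4:**
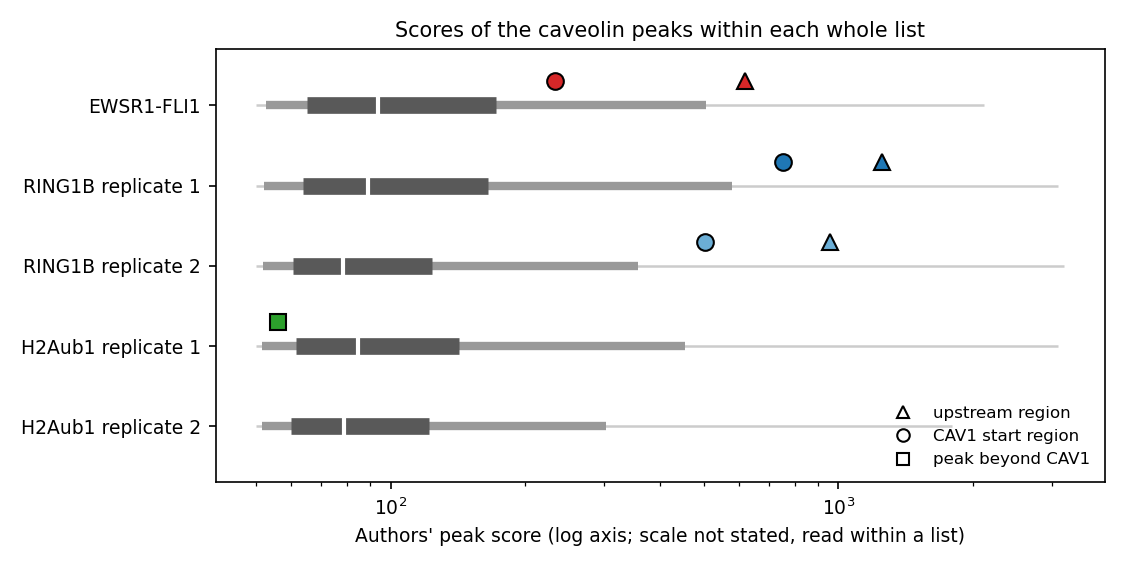
Peak scores (log axis) of the caveolin peaks as coloured symbols above the score distribution of each whole list, with the thin line from lowest to highest, the grey bar from the 5th to the 95th percentile, the dark bar over the middle 50% and the white tick at the median. Triangles (upstream region) and circles (CAV1 start) lie beyond the dark bar in the EWSR1-FLI1 list and both RING1B lists, and the H2Aub1 peak (square, 55.87) lies low in its list.

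The 2 shared caveolin regions lay 55.5 kb apart, measured between the middles of the merged regions. Another shared region at that distance or nearer was found for 163 of the 892 shared regions (18.3%), and the median distance to the next shared region was 357 kb. Of 88 neighbouring pairs at that distance or nearer, only the caveolin pair had both regions at rank 44 or higher by averaged RING1B percentile. Both limits, the distance and the rank, are the pair's own values, set after they were seen, so nothing is read from this. Higher in that order, at ranks 2 and 8, stood a neighbouring pair on chromosome 14 that lay farther apart (97681312 to 97685033 and 97531782 to 97533638). The genome was also divided into 8697 consecutive stretches of 350 kb. At least 1 shared region fell in 722 of them and at least 2 in 141 (1.62%). For EWSR1-FLI1, 1557 held at least 1 peak and 410 (4.71%) at least 2. At least 2 RING1B peaks fell in 548 (6.30%) for replicate 1 and 910 (10.5%) for replicate 2. These stretches were fixed, while the window was placed on known peaks, so nothing is read from these shares.

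Outside the window the surroundings were sparse in EWSR1-FLI1. The nearest EWSR1-FLI1 peak before it ended at 108477628, so that 7.63 Mb without a peak preceded the upstream region. This gap was the fifth longest of the 105 between EWSR1-FLI1 peaks on chromosome 7, and 46 of 2122 such gaps in the genome were longer. The next peak after the window (116743387 to 116744151) had a score of 63.52, 23.4% of the list lying below it, and followed the CAV1 start peak by 579 kb. The median gap was 514 kb. The caveolin peaks thus formed a pair with a long empty stretch on one side and an ordinary one on the other.

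RING1B peaks just beyond the bounds were lower in score than those of the window and differed between the replicates on one side. Before the window the nearest peak was at 115970694 to 115971755 in replicate 1 (score 74.99), 28.2 kb outside, and at 115850187 to 115853489 in replicate 2 (score 224.59), 147 kb outside. The former stood above 38.3% of its list. The latter was 3303 bp wide and stood above 89.6% of its list, so it was not a weak peak there. After the window the replicates had a peak at nearly the same place, 1261 kb outside, with scores of 66.02 and 97.2, above 27.9% and 64.1% of their lists. The upstream region, at 1252.72 and 959.55, and the CAV1 start region, at 753.98 and 504.04, were thus higher than their neighbours in both replicates. The window was chosen with these peaks known, so nothing is read from this.

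H2Aub1 was not called at either RING1B region. A reproducible H2Aub1 region overlapped 0 of the 2 RING1B regions, beside 19.8% of 1587 in all, and 0 of the 2 EWSR1-FLI1 peaks, beside 8.81% of 2145. Most regions of the whole lists lacked it too, so nothing is read from these counts. The single H2Aub1 peak of the window ran from 116312456 to 116313541 in replicate 1 (1086 bp, score 55.87). Of that list 14.8% had a lower score, and replicate 2 had no peak in the window. It lay 148 kb past the CAV1 start and 173 kb past the CAV2 start. RefSeq on GRCh38 names COMETT and MET as the next genes after CAV1, and the peak was not assigned to a gene on hg19.

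Stretches without H2Aub1 peaks were common. Of the 8697 stretches of 350 kb, 5982 (68.8%) had no peak of H2Aub1 replicate 2, and 4108 (47.2%) had at least 1 of replicate 1. The nearest reproducible H2Aub1 region ran from 116961514 to 116965993, 799 kb past the CAV1 start, and 855 kb from the upstream region. Over the 892 shared regions the median distance to the nearest reproducible H2Aub1 region was 358 kb, and 29.8% of them were farther from one than the upstream region. On the other side the nearest H2Aub1 peaks lay 2272 and 2275 kb before the window in replicates 1 and 2. Peak lists hold only what passed the caller, with lowest scores of 50.01 and 50 in the H2Aub1 lists, so a weaker signal of the mark at CAV1 could not be seen.

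The start of CAV2 carried no peak of the 5 lists. Its nearest peak edge was that of RING1B replicate 2 at the CAV1 start, 22.0 kb downstream, followed by replicate 1 at 22.2 kb and EWSR1-FLI1 at 23.1 kb. On the upstream side the nearest edges were 30.1 kb away in both RING1B replicates and 30.4 kb in the EWSR1-FLI1 list. The CAV2 start thus lay between the shared regions without a peak of its own, while RING1B covered the start of CAV1. Whether this goes with the CpG content of the starts was not tested.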

How the data were processed

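ChIP-seq peak lists of A673 cells were used as the authors deposited them, 1 per sample. The deposited score of each peak has no stated scale. Bowtie (no version) and hg19 are named for the 5 samples, per the submitters' processing notes, which add mm9, with no role, for RING1B and H2Aub1. Peak names begin with MACS, per the file headers and names. Its version, its background and its filters are not given in the sources used here. Lists hold no read counts, so depth is unknown.

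Starts of both genes are those given with the window on hg19. Positions were written 1-based. RING1B or H2Aub1 peaks of both replicates sharing at least 1 bp were merged, and regions with a peak of each were called reproducible. The averaged RING1B percentile is the mean over replicates of the share of the 1587 reproducible regions with a lower score. Stretches of 350 kb ran from each chromosome's first base to its last peak. Each EWSR1-FLI1 peak was paired with the RING1B peak sharing most bases. Overlap counting was tested on simulated data. Python 3.11.15, NumPy 2.4.6, SciPy 1.17.1 and Matplotlib 3.10.9 were used. RefSeq tables of GRCh38.p14 gave promoter sequences and gene order only. All peaks of EWSR1-FLI1 and RING1B in the window were described, as the rule for naming asked.

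The members, lists and window were chosen with earlier results of these data known. No test was run. Alternatives changed the overlap rule, the score limit, the joining of replicates and the bounds.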

Additional observations from a re-analysis of the deposited data

How the results depend on the processing

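Shared occupancy kept its values under every alternative run. With 50% of the shorter region shared, centres within 500 bp, the top 50% of scores, the union of replicates, either replicate left out, the window widened by 500 kb or limited to 50 kb around the gene starts, 2 EWSR1-FLI1 peaks had RING1B, 2 RING1B regions had EWSR1-FLI1 and none of either had H2Aub1. The wider window held 3 EWSR1-FLI1 peaks. Left-out replicates gave 2 to 2 for RING1B with EWSR1-FLI1 and 0 to 0 for H2Aub1. Among the top 50% of scores, H2Aub1 replicate 1 had 0 peaks in the window in place of 1. Ranked by width in place of score, the strongest peak stood above 89.0% and 90.7% of RING1B replicates 1 and 2, 69.1% of EWSR1-FLI1 and 48.4% of H2Aub1 replicate 1. From its nearest edge the upstream EWSR1-FLI1 peak was 30.4 kb from CAV2 and 55.6 kb from CAV1. No paired analysis was possible because the results come from no test. Depth is unknown, EWSR1-FLI1 has no replicate, and peak edges depend on the caller.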
